A study of Mus musculus with 12 samples.

Results

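The genes described here encode the proteins of the mouse ribosomes, and they were taken by name from the authors' table comparing 2 embryonic tissues. Of 21563 genes listed there, 160 had a name of the form Rpl, Rps, Rplp or Rpsa (83 cytosolic members, 51 of the large and 32 of the small subunit) or of the form Mrpl or Mrps (77 mitochondrial members, 48 of the large and 29 of the small subunit). Predicted genes with a -ps name were left out. The rule used names and no measured value, though the set was chosen with earlier results of these data known. The tissues were the heart tube (HT, 6 libraries) and the posterior second heart field (pSHF, 6 libraries) of CD1 mouse embryos of wild-type genotype at E10.0. Poly-A RNA was sequenced, and the series title places the comparison in work on Hedgehog signaling and the timing of differentiation. HT and pSHF were dissected from the same embryo per the labels' protocols, but the labels do not say whether a library stands for 1 embryo or a pool, so every p-value measures the spread between these libraries, which may be technical. Library codes ran from MR13 to MR18 in pSHF and from MR25 to MR30 in HT, so a difference in handling between those runs of codes and a difference between the tissues cannot be told apart.

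A cell holds ribosomes of 2 separate kinds. Cytosolic ribosomes make nearly all proteins of the cell, and their proteins are made in strict proportion because a ribosome needs each of them. Mitochondrial ribosomes, built inside the organelle from imported nuclear-encoded proteins and mitochondrial RNAs, translate only the few proteins that the mitochondrial genome encodes, which are core subunits of the respiratory chain and the ATP synthase. Heart muscle is rich in mitochondria, and its demand for them grows as the muscle matures.

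Values are the authors' normalized gene counts, and fold changes, HT over pSHF, were taken from log2 values after adding 1, which understates those of low genes. Rebuilt from the worth of 1 read, depth came to between 20634836 and 25645378 reads in HT and between 19089822 and 26287147 reads in pSHF. Only 46.5 to 49.4% of the low values in a library were whole multiples of 1 read, so these depths are rough. After the authors' scaling the libraries did not have equal totals: HT libraries summed to between 24136600 and 25035000 and pSHF libraries to between 20552700 and 20787000, so the choice of scaling bears on every level below. The labelled tissues carried their markers. All 8 heart muscle markers were higher in HT (1.5 to 1.9% of the total in HT, against 0.085 to 0.198% in pSHF), and all 8 second heart field markers were higher in pSHF (0.0049 to 0.0063% in HT, against 0.0482 to 0.0600% in pSHF). Red cell genes (12 of 14 listed were in the table, all higher in HT) made up 1.66 to 7.10% of the total in HT and 0.350 to 0.693% in pSHF, with the highest shares in HT libraries MR28R and MR30. All 9 foregut endoderm markers (0.0047 to 0.0069% in HT, against 0.0215 to 0.0272% in pSHF) and all 8 neural crest markers (0.0172 to 0.01995% in HT, against 0.0449 to 0.0508% in pSHF) were higher in pSHF. Of 8 endothelial markers 6 were higher in HT and 1 in pSHF (0.0819 to 0.103% in HT, against 0.0625 to 0.0697% in pSHF). No marker of these 6 lists was at 0 in every library. In bulk tissue, fewer cells of a type and less RNA per cell cannot be told apart.

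The mitochondrial members were higher in HT almost as a class, while few of the cytosolic members differed in either direction. Among the mitochondrial genes, 71 of 77 were higher in HT, 1 was higher in pSHF and 5 were not called (limma, adjusted p below 0.05), where 38.3% of all 14909 genes tested were higher in HT and 40.0% were higher in pSHF. Their median log2 fold change was 0.37, or 1.29-fold, against a median of -0.02 over all genes tested. The cytosolic genes had a median of 0.02, with 7 of the 80 tested higher in HT, 6 higher in pSHF and 67 not called. In either direction that is 72 of 77 mitochondrial and 13 of 80 cytosolic members, where 78.3% of all genes tested were called. In 59 of the 77 mitochondrial members every HT library lay above every pSHF library, as in 30.1% of all genes tested. Of the 80 cytosolic members 3 were separated that way and 2 the opposite way, where 30.3% of all genes tested had every HT library below every pSHF library. The counts depend on scaling: with 1 common total per library, 37 mitochondrial members were higher in HT and 6 in pSHF, and 0 cytosolic members were higher in HT and 64 in pSHF. Heart muscle and red cell markers moved with the tissues as given above, and their part in these counts was not tested. In the authors' separate and uneven raw count table only 6 mitochondrial members could be tested by edgeR, all with the opposite sign and 2 called higher in pSHF. DESeq2 on the same raw counts covered more mitochondrial members, with a median above 0 and few called in either direction.

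**Figure D1:**
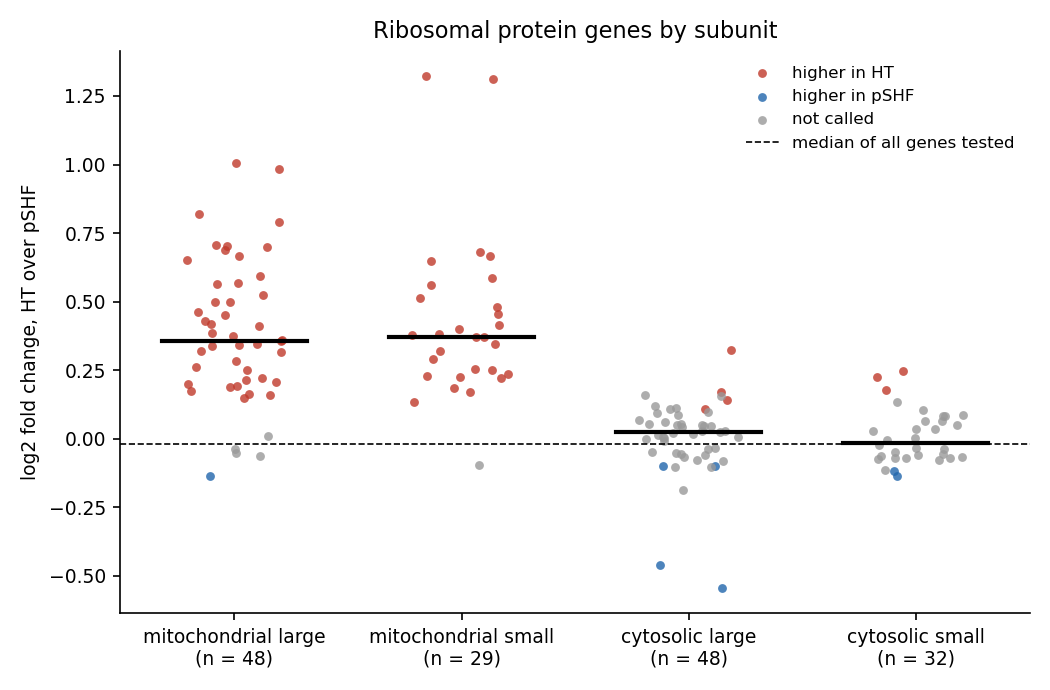
Log2 fold change, HT over pSHF, of each member tested, by ribosome and subunit (48 mitochondrial large, 29 mitochondrial small, 48 cytosolic large and 32 cytosolic small subunit genes). Points are genes coloured by their call at an adjusted p of 0.05, black bars are set medians and the dashed line is the median of all genes tested (-0.02). The mitochondrial points lie mostly above 0, with medians of 0.36 and 0.37, and the cytosolic points crowd around 0.

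The mitochondrial difference was modest for most genes, and it varied less than the differences of all genes tested. The lower and upper quartiles of the set were log2 fold changes of 0.22 and 0.56, against -0.48 and 0.49 over all genes tested. Of the 77 members 24 exceeded 0.5 and 3 exceeded 1, where 3693 and 2010 of all 14909 genes tested did. Both subunits took part: 43 of 48 large subunit genes and 28 of 29 small subunit genes were higher in HT, with medians of 0.36 and 0.37. Mammalian mitochondrial ribosomes carry proteins with bacterial counterparts, which by the naming convention have low numbers for the most part, and proteins found only in mitochondria, which mostly have high numbers (Mrps28, with a bacterial counterpart, is an exception). Split that way after the values were seen, 24 of 28 large subunit genes numbered up to 36 and 19 of 20 numbered 37 and above were higher in HT, as were 15 of 16 small subunit genes numbered up to 21 and 13 of 13 numbered 22 and above. The medians of those groups were 0.34, 0.40, 0.36 and 0.38, so genes of low and of high number were both mostly higher in HT.

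For the cytosolic members a lack of calls came with narrow intervals. The 95% interval of the log2 fold change lay within 0.25 of 0 in 60 of the 80 genes tested and within 0.5 of 0 in 75, so for most of them a difference of more than 0.5 lies outside the interval at this scaling. Across the 67 genes not called the bounds reached from -0.70, for Rpl26, to 0.60, for Rpl29, both named for the scatter of their libraries.

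The same contrast held in each library when the members were summed. Summed mitochondrial members came to 74474, 76771 and 79122 normalized gene counts in HT (lowest, median, highest), against 57431, 58373 and 61674 in pSHF. The tissues did not overlap. Summed cytosolic members came to 665738, 702914 and 796228 in HT, against 678327, 690644 and 770080 in pSHF. These ranges overlapped almost wholly, with HT library MR30 and pSHF library MR13 highest in their tissues. The ratio of the sums does not depend on how libraries are scaled to each other: there were 9.91, 11.1 and 11.3 mitochondrial per 100 cytosolic in HT, against 8.01, 8.42 and 8.50 in pSHF. All 6 HT libraries lay above all 6 pSHF libraries. MR30 and MR28R, the HT libraries with the largest red cell shares (5.84 and 7.10%), had the lowest ratios in HT at 9.91 and 10.1, and the part of red cell RNA in this was not tested.

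**Figure D2:**
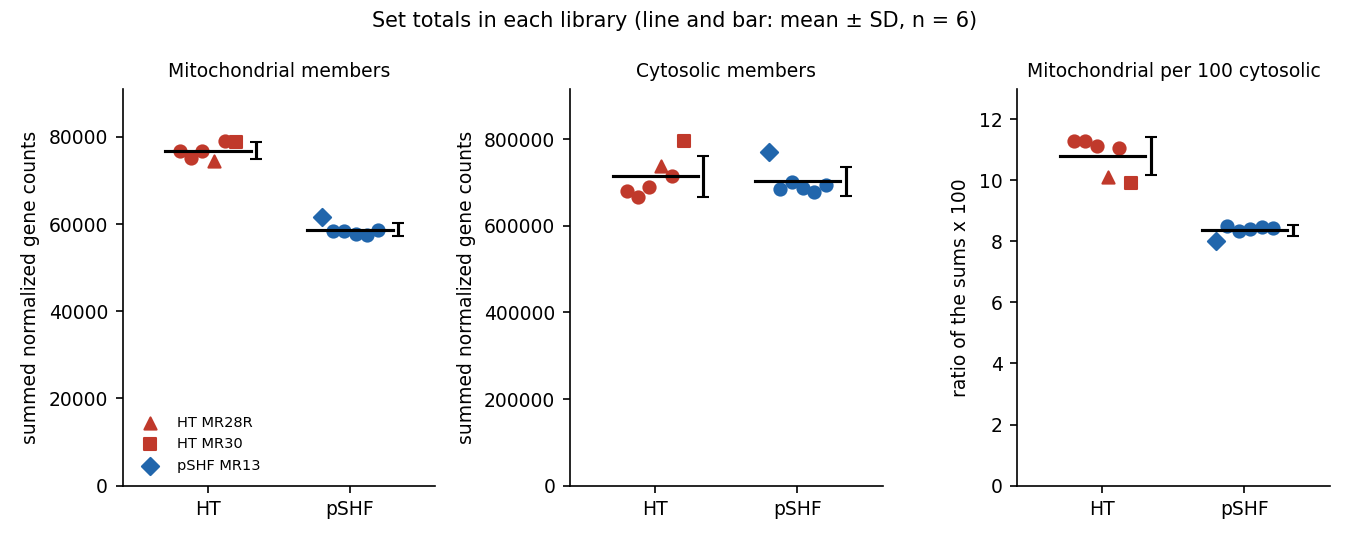
Summed mitochondrial members, summed cytosolic members (normalized gene counts, 6 HT and 6 pSHF libraries) and mitochondrial per 100 cytosolic, with 1 point per library and the mean ± SD. The mitochondrial sums are 74474 or more in HT and 61674 or less in pSHF, the cytosolic sums overlap, and the ratio separates the tissues at 9.91 and above in HT against 8.50 and below in pSHF.

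Scaling moved the level of every gene without moving the gap between the 2 ribosomes. When all libraries were given 1 common total, the median of all genes tested shifted by -0.24 on the log2 scale. The cytosolic median then became -0.23 and the mitochondrial median 0.13. In that scaling 26.3% of all genes tested were higher in HT and 54.7% were higher in pSHF. Scaling to the total without red cell and mitochondrial-genome genes gave 1 higher in HT and 52 higher in pSHF among the cytosolic members and 50 and 6 among the mitochondrial ones, against 29.3 and 50.9% of all genes. The same upper quartile gave 2 and 27 cytosolic and 63 and 5 mitochondrial, against 33.5 and 45.3% of all genes. Setting the median cytosolic member equal in every library gave 3 and 14 cytosolic and 62 and 1 mitochondrial, against 33.3 and 40.6% of all genes. Since a scaling shifts all genes of a library alike, the mitochondrial median exceeded the cytosolic one by 0.35 to 0.36 in log2 under all 5. As a share of each library's total, cytosolic members made up 2.72 to 3.23% in HT and 3.29 to 3.75% in pSHF, and mitochondrial members 0.297 to 0.325% in HT and 0.278 to 0.300% in pSHF. Thus whether the cytosolic members were level with or below pSHF depends on the scaling.

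**Figure D3:**
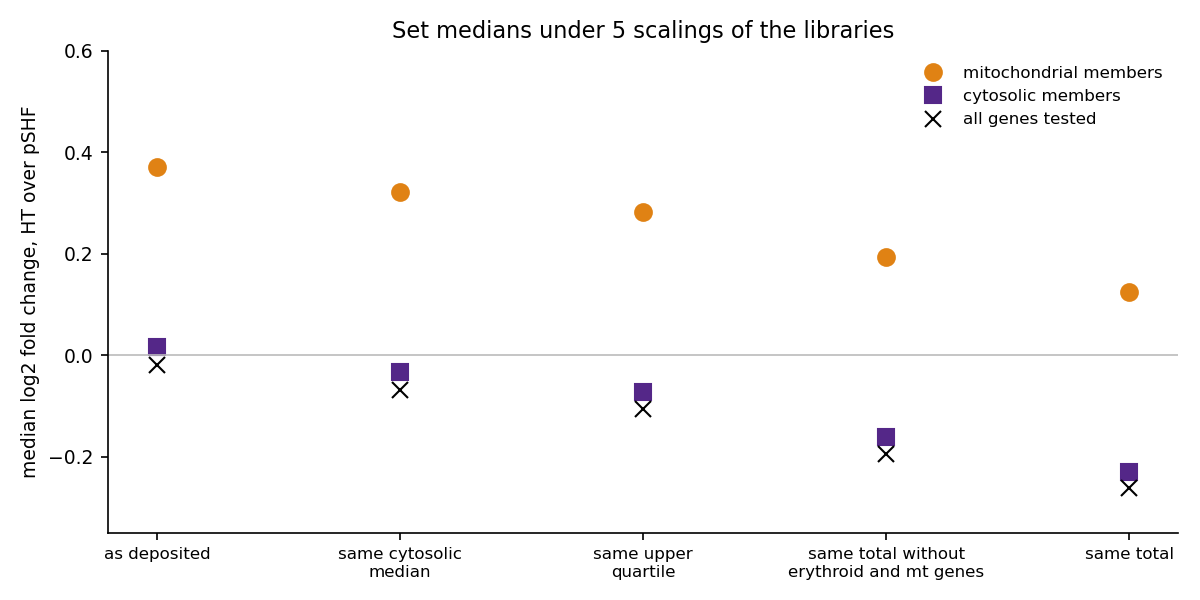
Median log2 fold change, HT over pSHF, of the 77 mitochondrial members, the 80 cytosolic members and all 14909 genes tested under 5 scalings of the libraries. All 3 medians drop together from left to right; the mitochondrial median stays above 0 (0.37 to 0.13) and the cytosolic median passes from 0.02 to -0.23.

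Among the mitochondrial members tested, the highest and second highest log2 fold changes were those of Mrps28 and Mrps36, named for the small subunit. Mrps28 (bS1m), a small subunit protein, lies at chr3:8802146-8923918 on the minus strand (GENCODE annotation of GRCm38). It had 506, 543 and 614 normalized gene counts in HT, against 200.2, 219 and 242 in pSHF. Every HT library exceeded every pSHF library by far. Its log2 fold change was 1.32 ± 0.06 (SE; limma, adjusted p = 4.64e-11), or 2.50-fold, and none of its transcript windows of 50 bases occurs in another gene. Mrps36 (chr13:100735955-100744659, minus strand) is named as a small subunit protein but is now known as a subunit of the 2-oxoglutarate dehydrogenase complex, an enzyme of the citric acid cycle. It had 746, 798 and 938 in HT, against 294, 327 and 376 in pSHF. These did not overlap either, with a log2 fold change of 1.31 ± 0.08 (SE; limma, adjusted p = 3.93e-10). Since 36.2% of its windows occur in 7 other annotated genes, its count is less certain than that of Mrps28. Mrps31, a mitochondria-specific small subunit protein, had 687, 736 and 780.2 in HT, against 438, 444 and 499 in pSHF (log2 fold change 0.68).

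The least changed small subunit genes encode proteins with a bacterial counterpart as well as specific ones. Mrps2 (uS2m) had 1268, 1377 and 1426 in HT, against 1145, 1199 and 1281 in pSHF, and was higher in HT by 0.17 ± 0.04 on the log2 scale (SE; limma, adjusted p = 0.00086), with ranges that just overlapped. Mrps25, a mitochondria-specific protein, had 1121, 1226 and 1363 in HT, against 1072, 1105 and 1214 in pSHF (log2 fold change 0.13, limma adjusted p = 0.0206), and 73.9% of its windows occur in 2 other genes. Its call was lost without HT library MR29 (limma, adjusted p = 0.0516). Both values turned negative when libraries were scaled to the same total (-0.07 and -0.11). Mrps11 (uS11m), a protein of the platform of the small subunit, was the only small subunit gene not called: it had 566, 628 and 741 in HT, against 570.0, 678 and 748 in pSHF, almost the same range.

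In the mitochondrial large subunit Mrpl36 (bL36m; chr13:73328513-73332178, plus strand) led. It had 899, 925 and 976 in HT, against 441, 459.7 and 485 in pSHF. Its log2 fold change was 1.01 ± 0.04 (SE; limma, adjusted p = 4.91e-12), or 2.01-fold. Mrpl42 (chr10:95480805-95501940, minus strand), a mitochondria-specific protein, had 1919, 2004 and 2139 in HT, against 985, 1022 and 1055 in pSHF, with 0.98 ± 0.03 (SE; limma, adjusted p = 9.55e-13). Mrpl16 (uL16m), which lies near the active site for peptide bond formation, had 788, 921 and 955 in HT, against 494, 509 and 545 in pSHF (log2 fold change 0.82). All 3 genes separated the tissues completely, and the lowest HT value of Mrpl16 came from MR28R. Mrpl12, the stalk protein (bL12m) that also binds the mitochondrial RNA polymerase, had the highest level per length of the 76 mitochondrial members with an annotated length. It had 2636, 2814 and 2926 in HT, against 1646, 1715 and 1808 in pSHF. Its log2 fold change was 0.70 ± 0.04 (SE; limma, adjusted p = 1.15e-10); like Mrpl45 it was named for its start-site sequence, after its values were seen. Mrpl45, which holds the ribosome to the inner membrane, had 1349, 1396 and 1564 in HT, against 952.5, 973 and 1070.1 in pSHF (log2 fold change 0.52).

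At the low end Mrpl50 was the only mitochondrial member higher in pSHF. It had 1156, 1376 and 1513 in HT, against 1438, 1476 and 1587 in pSHF. Its log2 fold change was -0.13 ± 0.05 (SE; limma, adjusted p = 0.0357). The ranges overlapped, and the call rested on single libraries: it was lost without HT library MR26, MR28R or MR30 and without pSHF library MR13, MR14 or MR17. Mrpl13 (uL13m) had 1097, 1168 and 1357 in HT, against 1179.9, 1228 and 1388 in pSHF (log2 fold change -0.06, limma adjusted p = 0.313). Mrpl17 (bL17m), a protein at the end of the exit tunnel, had 828, 896 and 909 in HT, against 888, 915 and 949 in pSHF (log2 fold change -0.05, limma adjusted p = 0.182). Neither was called, nor were Mrpl11 (uL11m, at the stalk base) and Mrpl20 (bL20m), named after their values were seen. The 95% interval reached from -0.18 to 0.06 for Mrpl13 and from -0.13 to 0.02 for Mrpl17, below the set median of 0.37. Scaled to the same total, these 4 genes, Mrpl50 and Mrps11 were the 6 mitochondrial members higher in pSHF.

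**Figure D4:**
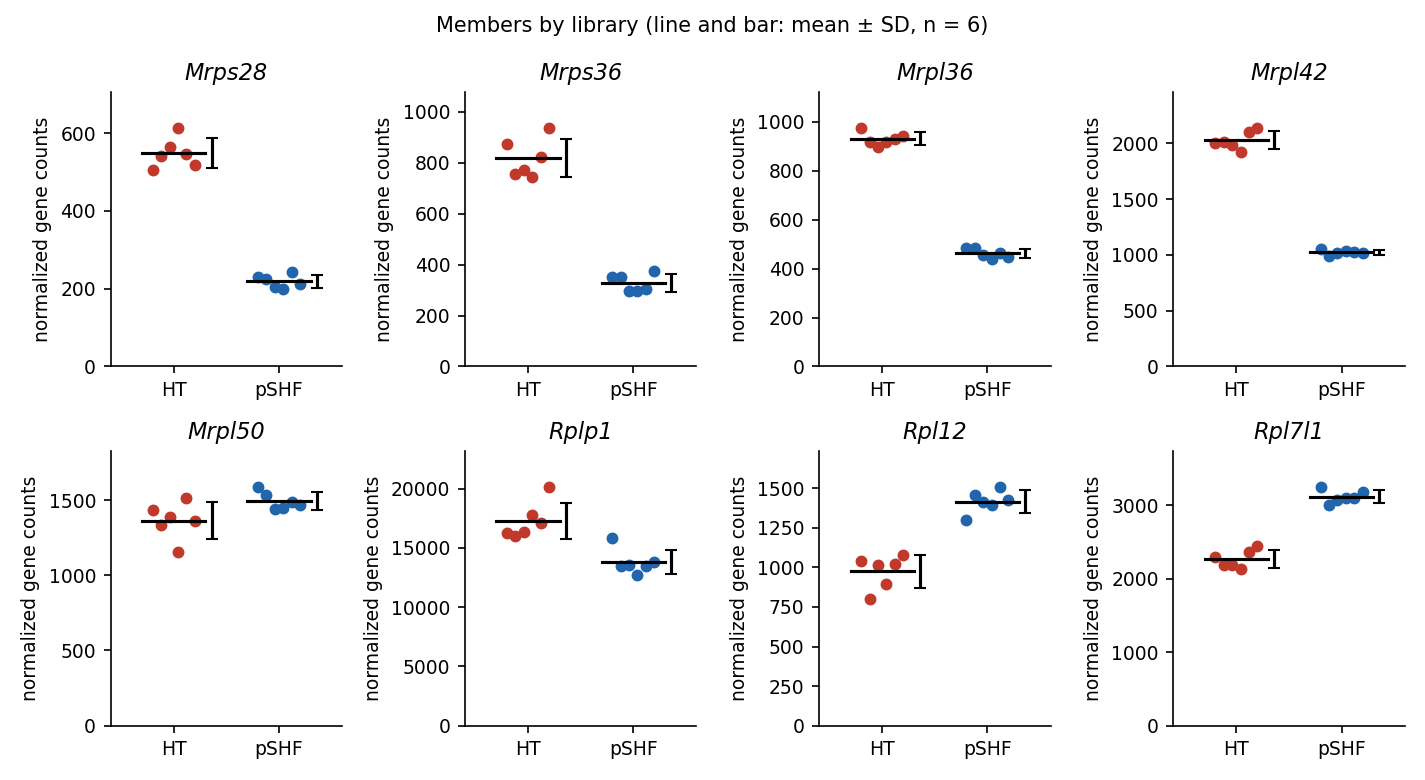
Normalized gene counts of 8 members in 6 HT and 6 pSHF libraries, with 1 point per library and the mean ± SD. Mrps28, Mrps36, Mrpl36 and Mrpl42 are about 2 times as high in HT or more, Mrpl50 overlaps, Rplp1 is modestly higher in HT, and Rpl12 and Rpl7l1 are higher in pSHF with no overlap.

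Among the cytosolic members the stalk of the large subunit held differences in opposite directions. The stalk, which recruits the translation factors, is made of the acidic proteins P0, P1 and P2 and is joined at its base by uL11, the product of Rpl12. Rplp1 (chr9:61913284-61914542, minus strand; protein P1) had 16000.1, 16732 and 20124 normalized gene counts in HT, against 12737, 13513 and 15821 in pSHF. Every HT library lay above every pSHF library, with MR30 and MR13 the highest of their tissues. Its log2 fold change was 0.32 ± 0.06 (SE; limma, adjusted p = 0.000163), the largest among the 80 cytosolic members tested. Rplp0 and Rplp2 were named for their place in the stalk, after their values were seen. Rplp0 had a log2 fold change of 0.14 (limma, adjusted p = 0.0404) and Rplp2 one of -0.03 (limma, adjusted p = 0.582). Rpl12 (chr2:32961559-32965345, plus strand) went the other way: it had 802, 1018 and 1080.2 in HT, against 1296, 1419 and 1507 in pSHF. That is a log2 fold change of -0.54 ± 0.07 (SE; limma, adjusted p = 2.12e-06), the lowest among the 80 tested, with no overlap between the tissues. Of Rplp1 windows 60.0% occur in 5 other genes and of Rpl12 windows 49.4% occur in 15, so reads may have been split with copies. Scaled to the same total, Rpl12 stood at -0.79 (limma, adjusted p = 2.92e-08), while Rplp1 stood at 0.08 (limma, adjusted p = 0.245) and was no longer called.

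Most other cytosolic calls were small. Rpl4 (uL4), whose loop lines the exit tunnel, had 31970.3, 33601 and 36566 in HT, against 29082, 29759 and 31931 in pSHF (log2 fold change 0.17, limma adjusted p = 0.00125), just without overlap. Rpsa (uS2), which is also known as the laminin receptor, had 11609, 13538 and 17357 in HT, against 9619, 11409 and 13825 in pSHF (log2 fold change 0.25 ± 0.11 SE, limma adjusted p = 0.0448). Its ranges overlapped widely, and its call was lost without HT library MR25, MR27, MR28R or MR30 and without pSHF library MR14, MR16 or MR17 (limma, adjusted p of 0.0641 to 0.107). Rps29 (uS14) was higher in HT by 0.18 on the log2 scale (limma, adjusted p = 0.00382), and Rpl23, chosen after its values were seen, by 0.11. On the pSHF side Rps14 (uS11) had 11196, 11316 and 12338 in HT, against 11576, 12396 and 14338 in pSHF (log2 fold change -0.14, limma adjusted p = 0.0127). Rps10, at the beak of the small subunit, stood at -0.12 (limma, adjusted p = 0.0274), a call lost without HT library MR25, MR26 or MR27 or pSHF library MR13, and Rpl7a and Rpl18, chosen after their values were seen, each at -0.10. Rps19, at the head of the small subunit and best known for its loss in Diamond-Blackfan anemia, had 10315, 10794 and 12395 in HT, against 11143, 11747 and 13338 in pSHF (log2 fold change -0.11, limma adjusted p = 0.0587). It was called higher in pSHF without HT library MR30 (limma, adjusted p = 0.00882) and without pSHF library MR16 or MR17.

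Counts of cytosolic calls moved with single libraries. The share of all genes called under each of these settings is not given here, so the moves cannot be read as particular to the cytosolic members. Without HT library MR30 there were 4 members higher in HT and 14 higher in pSHF, and without pSHF library MR13 there were 13 and 3. Without HT library MR25 or MR27 the count higher in pSHF fell to 3, and without pSHF library MR14, MR16 or MR17 the count higher in HT fell to 4. Without MR28R, MR30 and MR13 together, an alternative chosen after seeing the data, there were 10 and 16 cytosolic members and 71 and 0 mitochondrial members. In MR30, 72 of 80 cytosolic members lay above the pSHF mean, and in the other HT libraries 19 to 49 did. In MR13 it was 76, against 11 to 31 in the other pSHF libraries. The mitochondrial count higher in HT was 70 or 71 whichever library was left out.

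Several ribosomal protein genes have a paralog, a second gene for a closely related protein, and the ratio of paralog to parent within a library does not depend on scaling. The ratios are of counts, with no adjustment for length. Of 3 pairs tested, 1 differed. Rpl7l1 (chr17:46773907-46782672, minus strand), known for a part in the assembly of the large subunit, had 2131, 2242 and 2447 in HT, against 2996, 3102 and 3247 in pSHF, without overlap (log2 fold change -0.46 ± 0.04 SE, limma adjusted p = 1.89e-08). Its parent Rpl7 (uL30) had 20481, 21827 and 23285 in HT, against 21992, 22241 and 25586 in pSHF. Rpl7l1 thus came to 9.51, 10.5 and 11.2% of Rpl7 in HT, against 12.7, 13.95 and 14.3% in pSHF. The log2 ratio was lower in HT by -0.40 (exact two-sided permutation test over 6 and 6 libraries, p = 0.002165, the smallest it can give; 0.00649 adjusted over 3 pairs), and all 6 HT libraries lay below all 6 pSHF libraries. A short stretch of Rpl7l1, 9.19% of its windows, occurs in 513 other genes, and 53.3% of Rpl7 windows occur in 13.

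Rpl22l1 came to 36.7, 39.1 and 40.9% of Rpl22 in HT, against 35.4, 37.04 and 39.3% in pSHF, ranges that overlapped. The log2 ratio differed by 0.07 (exact two-sided permutation test, p = 0.0758, adjusted p = 0.114), and without HT library MR28R by 0.08 (adjusted p = 0.0455 in the same test). Rps27l, a paralog that p53 induces, had 1541, 1639 and 1688 in HT, against 1340.2, 1376 and 1534 in pSHF, just without overlap. Its log2 fold change was 0.22 ± 0.04 (SE; limma, adjusted p = 8.35e-05). Its parent Rps27 scattered from 803 to 1937 in HT and from 867 to 1450.0 in pSHF, and the log2 ratio of the pair differed by 0.12 (exact two-sided permutation test, adjusted p = 0.567).

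The 3 further paralogs in the table were too low to test. Rpl3l, the form of Rpl3 restricted to heart and skeletal muscle, was listed at 3.71, 9.27 and 12.5 normalized gene counts in HT, against 0, 0.906 and 2.27 in pSHF. All HT libraries lay above all pSHF libraries, and the authors' deposited table gives a log2 fold change of 3.27 with an adjusted p of 0.000124. Rpl3 itself had 8991, 10118 and 10293 in HT, against 8862, 9538 and 10618 in pSHF, and per kilobase of exon Rpl3l stood at 5.12 in HT and 0.600 in pSHF, against medians of 3685 in HT and 3514 in pSHF over the cytosolic members tested. Rpl39l was listed between 0 and 1.28 in HT and between 0 and 0.905 in pSHF, and Rpl10l, an autosomal copy of the X-linked Rpl10 known from the testis, was listed at 0 in every library. Among the parents, Rpl39 (log2 fold change 0.09, limma adjusted p = 0.137), Rps4x (0.04, limma adjusted p = 0.442) and Rpl10 (-0.19, limma adjusted p = 0.113) were not called. Rpl39 was called higher in HT without pSHF library MR13 (limma, adjusted p = 0.0166), and Rpl10 was called higher in pSHF when MR30 of HT (limma, adjusted p = 0.0040) or MR17 of pSHF (limma, adjusted p = 0.0386) was left out.

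Cytosolic members shared more sequence with other annotated genes than mitochondrial members did. Windows of 50 bases were taken from each member's longest protein-coding transcript and matched on either strand. Of a cytosolic member's windows, the median share found in another annotated gene was 47.6%, and 37 of 80 members shared more than 50% of theirs. For the mitochondrial members the median was 2.51%, and 29 of 76 shared none. The SD of log2 values within a tissue exceeded 0.2 in 12 cytosolic members, with the most in Rpl26, and in 1 mitochondrial member, Mrpl23, named after its values were seen. Rpl26 had 1951, 3025 and 5583 in HT, against 1771, 3417 and 5490.3 in pSHF, a wide scatter within either tissue. Rpl35a had 1847, 2873 and 3965 in HT, against 1971, 2254 and 3196 in pSHF (log2 fold change 0.16, limma adjusted p = 0.430). The Spearman correlation of the shared percent with that SD was 0.27 over 80 cytosolic and 0.24 over 76 mitochondrial members. No source used here says how reads that fit several places were assigned, and the part of copies in the scatter was not tested.

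Per kilobase of exon, the median cytosolic member stood at 3685 normalized gene counts in HT and 3514 in pSHF, and the median mitochondrial member at 427 in HT and 320 in pSHF. Rplp1 was the highest cytosolic member at 34611 per kilobase in HT and 27665 in pSHF. Mrpl12 was the highest of the 76 mitochondrial ones at 1824 in HT and 1120 in pSHF.

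Gene structure differed between the families. A small nucleolar RNA gene, whose product guides the modification of ribosomal RNA, lay within 30 of 83 cytosolic members (36.1%) and within none of 76 mitochondrial members, against 1.61% of all genes tested. The cytosolic members with such a gene had a median log2 fold change of 0.05 (3 of 30 higher in HT, 2 higher in pSHF), and those without one had a median of 0.00095 (4 of 50 in each direction).

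The start sites are shown because mRNAs of cytosolic ribosomal proteins are known to begin with a run of pyrimidines, the mark through which growth signals set their translation. The sequences are from RefSeq (build GRCm38.p6), each from 40 bases before the annotated start to 20 from it, 5′ to 3′ on the gene's strand. Capitals mark a run of at least 6 C or T that begins within 5 bases before to 10 bases after the start. The first set holds 2 cytosolic genes higher in pSHF and 2 others whose ratio was examined, followed by 1 cytosolic paralog and 3 mitochondrial members with no such run.
Rpl12 (chr2:32961672-32961731, plus strand): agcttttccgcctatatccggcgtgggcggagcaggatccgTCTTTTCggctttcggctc
Rps10 (chr17:27635225-27635284, minus strand): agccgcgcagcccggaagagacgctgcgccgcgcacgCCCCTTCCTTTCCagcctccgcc
Rpl22l1 (chr3:28805468-28805527, plus strand): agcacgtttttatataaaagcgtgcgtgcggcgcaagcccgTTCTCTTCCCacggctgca
Rps27 (chr3:90213629-90213688, minus strand): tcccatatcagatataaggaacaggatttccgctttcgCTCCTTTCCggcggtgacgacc
Rpl7l1 (chr17:46782637-46782696, minus strand): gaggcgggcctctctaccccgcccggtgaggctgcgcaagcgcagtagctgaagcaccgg
Mrpl36 (chr13:73330969-73331028, plus strand): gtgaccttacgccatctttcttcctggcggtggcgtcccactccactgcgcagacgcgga
Mrpl42 (chr10:95501930-95501989, minus strand): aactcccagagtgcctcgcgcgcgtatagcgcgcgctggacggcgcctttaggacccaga
Mrps36 (chr13:100744640-100744699, minus strand): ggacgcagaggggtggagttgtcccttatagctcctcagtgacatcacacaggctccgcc

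Such a run was present in 23 of 63 cytosolic members with a RefSeq entry (36.5%) and in 8 of 68 mitochondrial members (11.8%), against 15.3% of all genes tested that have one. Within the cytosolic members the medians lay close together: the log2 fold change was 0.00026 with a run (23 genes, 0 higher in HT, 3 higher in pSHF) and 0.0072 without (37 genes). Annotated starts can lie some bases from the used one, so a run that is missed here may still be at the real start.

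Letters of 3 factors known for mitochondrial and ribosomal genes were searched on both strands of the 250 bases before the start. The first, bound by NRF1, which drives many nuclear genes for mitochondrial proteins, was spelled as GCGC, any base, then TGCGC. It was present in 10 of 68 mitochondrial members (14.7%) and 1 of 63 cytosolic members (1.59%), against 7.58% of all genes tested. The 10 mitochondrial holders had a median log2 fold change of 0.39 and the other 58 a median of 0.34. CGGAAG, the core of ETS-family sites, was present in 42.6% of mitochondrial and 52.4% of cytosolic members, against 23.3% of all genes. Its 29 mitochondrial holders had a median log2 fold change of 0.32 and the other 39 a median of 0.36. AAGATGGC, the core of YY1 sites, was present in 5.88% of mitochondrial and 1.59% of cytosolic members, against 1.81% of all genes. Its 4 mitochondrial holders had a median log2 fold change of 0.32 and the other 64 a median of 0.35. A match describes the letters and is not evidence of binding. The 130 bases before the RefSeq start are printed for 2 holders that were higher in HT and for Mrpl17, a holder that was not called, with the NRF1 letters in capitals.
Mrpl12 (chr11:120484507-120484636, plus strand): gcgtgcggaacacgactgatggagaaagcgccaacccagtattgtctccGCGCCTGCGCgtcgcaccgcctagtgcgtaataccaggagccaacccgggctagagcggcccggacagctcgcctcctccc
Mrpl45 (chr11:97315586-97315715, plus strand): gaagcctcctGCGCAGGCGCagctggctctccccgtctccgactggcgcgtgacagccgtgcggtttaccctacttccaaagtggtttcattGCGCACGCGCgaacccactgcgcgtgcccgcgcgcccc
Mrpl17 (chr7:105811088-105811217, minus strand): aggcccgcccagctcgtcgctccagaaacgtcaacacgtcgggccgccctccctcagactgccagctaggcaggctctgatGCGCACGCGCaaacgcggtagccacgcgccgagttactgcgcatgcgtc

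Proteins of either ribosome that have other names were checked as lists. All 5 mitochondrial ones were higher in HT, where 38.3% of all genes tested were. Their median of 0.25 (log2) fell to 0.0093 with the same total, and there 0 of the 5 were called. They include Chchd1, with 1061 ± 67.8 normalized gene counts in HT against 855 ± 31.4 in pSHF (SD, n = 6 each; 0.31 in log2), and Ptcd3, with 2631 ± 83.6 in HT against 2161 ± 68.1 in pSHF (0.28 in log2), both small subunit proteins. The smallest differences were those of Aurkaip1 (0.22) and Gadd45gip1 (0.14), proteins of the small and the large subunit in that order. Among the cytosolic ones, Rpl36al was higher in HT, with 2075 ± 192 in HT against 1485 ± 132 in pSHF (SD, n = 6 each; 0.48 in log2, limma). Fau, made as a fusion with a ubiquitin-like protein, stood at -0.05 in log2 and was not called.

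Genes that build the 2 ribosomes were called in both directions. Of 28 genes for mitochondrial translation and ribosome assembly, 15 were called higher in HT (53.6%, against 38.3% of all genes tested) and 6 in pSHF (21.4%, against 40.0%). Their median was 0.20 in log2 and became -0.05 with the same total, where 11 and 12 were called, against 26.3 and 54.7% of all genes. Gfm1, an elongation factor of mitochondria, had 3529.9 ± 156 in HT against 1317 ± 68.6 in pSHF (SD, n = 6 each; 1.42 in log2, limma adjusted p = 1.40e-13), a larger difference than that of any of the 80 cytosolic and 77 mitochondrial members tested. Mpv17l2, needed for assembly of the mitochondrial ribosome, stood at 0.79. Mterf4 and Mterf3, which act on mitochondrial ribosomal RNA and its synthesis, were higher in pSHF at -0.55 and -0.30.

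Of 35 genes for assembly of the cytosolic ribosome, 5 were called higher in HT (14.3%, against 38.3% of all genes tested) and 25 in pSHF (71.4%, against 40.0%). The median was -0.23 in log2. Heatr1, a processome component, had 1321 ± 111 in HT against 2254 ± 68.6 in pSHF (-0.77 in log2, limma adjusted p = 1.08e-09), and Rrs1, which acts on the large subunit, had 814 ± 44.0 in HT against 1296 ± 85.8 in pSHF (-0.67 in log2). Bysl and Sbds, assembly factors of the small and large subunit, were the highest in HT at 0.39 and 0.38. Of 15 genes for RNA polymerase I and its factors, which make ribosomal RNA, 1 was called higher in HT (6.67%, against 38.3% of all genes) and 9 in pSHF (60.0%, against 40.0%), with a median of -0.24. Znrd1 (-0.76) and Polr1c (-0.61) were lowest, and Polr1d (0.15) and Taf1b (0.07, limma adjusted p = 0.304) highest. A further list held 20 genes under the heading of cytosolic translation factors, not all of them factors by function. Of these 7 were called higher in HT (35%) and 10 in pSHF (50%), near the 38.3 and 40.0% of all genes, with a median of -0.09. Eif4ebp1, the repressor of cap-dependent initiation, had 2021 ± 133 in HT against 762 ± 48.3 in pSHF (1.41 in log2, limma adjusted p = 2.67e-12). Larp1, which binds mRNAs with the pyrimidine run, was higher in HT at 0.43. Nap1l1 (-0.32), a nucleosome assembly protein and not a translation factor, and Eif4b (-0.30) were the lowest of the list and higher in pSHF.

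**Figure D5:**
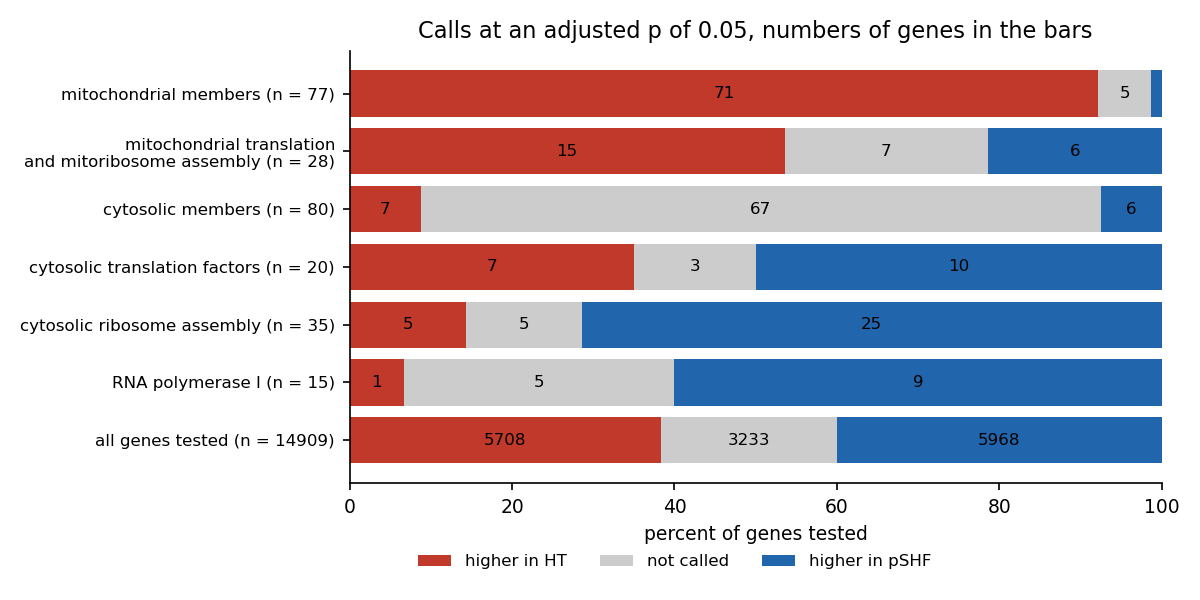
Percent of tested genes called higher in HT, not called, and called higher in pSHF, for the 2 ribosomes, 4 lists of translation and assembly genes and all genes tested (limma, deposited scaling); numbers in the bars are genes. The mitochondrial members are nearly all higher in HT (71 of 77), the cytosolic members mostly not called (67 of 80), and the cytosolic assembly genes mostly higher in pSHF (25 of 35).

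The authors' deposited table called the members much the same way. It has 71 of 77 mitochondrial members higher in HT and 1 higher in pSHF, and 8 of 82 cytosolic members higher in HT and 6 higher in pSHF, where it calls 31.7% of 18214 genes higher in HT and 33.9% higher in pSHF. For the mitochondrial members that edgeR could test, the separate raw count table, with 1.19% of the normalized total, went against these calls. In it 21 cytosolic and 6 mitochondrial members passed edgeR's filter, with 2 cytosolic members higher in HT and 2 mitochondrial members higher in pSHF (25.2% and 23.1% of 3370 genes were called in those directions). All 6 mitochondrial members had the opposite sign in that fit, and both that were called there reversed a call of the normalized table. On the same raw counts DESeq2 covered more mitochondrial members. Their median was above 0, and few were called in either direction. Mrpl19, a large subunit protein, had 604 raw reads in HT and 1189 in pSHF (edgeR log2 fold change -0.73, adjusted p = 9.27e-09), against 0.69 in the normalized table (limma, adjusted p = 2.96e-08). Mrpl27, also of the large subunit, had 43 raw reads in HT and 103 in pSHF (edgeR log2 fold change -1.0, adjusted p = 0.0022), against 0.32 in the normalized table (limma, adjusted p = 8.01e-05). The raw table is not an even sample of the normalized one: raw reads came to 83.3% of the summed normalized gene counts for Mrps25 and 13.7% for Mrpl19, while the median was 0.378% over 76 mitochondrial and 0.0599% over 79 cytosolic members. No source used here says how the tables relate, and the cause of the opposite signs was not tested. Mrpl19 and Mrpl27 were named after their values were seen. DESeq2 on the same reads turned the direction of Mrps28 (54 raw reads in all, log2 fold change -0.61, adjusted p = 0.567) and of Rpl12 (15 raw reads, 2.22, adjusted p = 0.193), neither of them called there.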

How the data were processed

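Per the labels' protocols, 1 µg of RNA entered a TruSeq version 2 library kit, and reads were single ends of 50 bases, described as stranded although the kit by its design keeps no strand. The submitters' processing notes name STAR, DESeq2 and mm10, without versions, annotation or counting tool. The authors deposited a DESeq2 table with log2 fold changes, their standard errors, a test score (the Wald statistic), p-values and 1 signal value for each library, here named normalized gene counts; 46.5 to 49.4% of its low values were whole multiples of 1 read within 0.01 reads, so whole reads were not recovered. The authors also deposited raw counts, 233865 to 340434 per library. Columns name a tissue and a library code.

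Tests used limma 3.58.1 (trend) on log2(value + 1) for the 14909 genes with a mean of at least 5, adjusted by Benjamini-Hochberg over all of them at 0.05, in R 4.3.3; edgeR 4.0.16 (TMM, filterByExpr) and DESeq2 1.42.0 on the raw counts were alternatives. The normalized gene counts lead because the raw table holds 1.19% of their total, unevenly over genes. Paralog ratios had an exact permutation test. Windows of 50 bases came from the longest protein-coding GENCODE transcript of each member, start sites from RefSeq. The text names the 3 highest and 3 lowest members of each of 4 sets by log2 fold change, the paralogs and parents, and 2 and 2 genes of each list. A gene of these lists is not reported here. The members and lists were chosen with earlier results of these data known.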

Additional observations from a re-analysis of the deposited data

Results flagged for a closer look

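For 17 of 72 groups of 6 libraries, 1 library lay far from the other 5; chance gives about 1 in 20, and the members of a family do not vary independently. In pSHF, 12 of the marked groups have library MR13 as the high one. Its normalized gene counts were 15821 for Rplp1, 31931 for Rpl4, 4637 for Rpl39, 7071 for Rpl22, 25586 for Rpl7, 1534 for Rps27l, 25129 for Rps4x, 13338 for Rps19, 12256 for Rps10 and 1214 for Mrps25, all above the other 5 pSHF libraries. For Rpl7 those lay between 21992 and 22377. The summed members of MR13 were high as well, at 770080 cytosolic (the others 678327 to 700405) and 61674 mitochondrial (57431 to 58588). Its ratio of 8.01 mitochondrial per 100 cytosolic was the low one of its tissue, below 8.34 to 8.50. In HT, MR30 was high for Rpl10 (2217, the others 1361 to 1669.8), Rpsa (17357, 11609 to 13623) and Rps14 (12338, 11196 to 11423). MR28R was low for Mrpl16 (788, against 902 to 955). MR13 had the lowest heart muscle share of the pSHF libraries (0.0850%, the others 0.113 to 0.198%) and the highest shares of foregut endoderm (0.0272%, the others 0.0215 to 0.0265%) and second heart field markers (0.0600%, the others 0.0482 to 0.0535%). Its endothelial share was the lowest (0.0625%, the others 0.0649 to 0.0697%). Its red cell share of 0.488% and neural crest share of 0.0467% lay within the range of the others. The part of these in its high values was not tested.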

How the results depend on the processing

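Scaling limits the calls, and depth limits Rpl3l, Rpl39l and Rpl10l. Sequence shared with copies may limit single cytosolic genes, which was not tested. In the raw table, no even sample of the normalized one, edgeR gave all 6 mitochondrial members it could test the opposite sign. Scaled to the same total, the cytosolic members had 0 genes higher in HT and 64 higher in pSHF with a median log2 fold change of -0.23, and the mitochondrial members 37 and 6 with 0.13. Without red cell and mitochondrial-genome genes in the total these were 1 and 52 (-0.16) and 50 and 6 (0.19), with the same upper quartile 2 and 27 (-0.072) and 63 and 5 (0.28), and with the same cytosolic median 3 and 14 (-0.034) and 62 and 1 (0.32). By construction each scaling shifts all genes alike. At a threshold of 0.01, the cytosolic calls were 4 and 2 and no mitochondrial gene (0) was higher in pSHF. On the raw counts edgeR gave 2 and 0 cytosolic and 0 and 2 mitochondrial genes, a mitochondrial median of -0.38 over 6 genes, and 850 and 779 of all genes; DESeq2 gave 2 and 0, 1 and 2, a mitochondrial median of 0.14 over 71 genes, and 1183 and 1005. Leaving out each library gave 4 to 13 and 3 to 14 cytosolic genes, 70 to 71 and 0 to 1 mitochondrial genes, and log2 ratios of 0.051 to 0.083 for Rpl22l1 over Rpl22, 0.02 to 0.25 for Rps27l over Rps27 and -0.42 to -0.37 for Rpl7l1 over Rpl7. Without MR28R, MR30 and MR13 together, chosen after seeing the data, 16 cytosolic and 0 mitochondrial genes were higher in pSHF. For the threshold of 0.01 and the fits with libraries left out, the share of all genes called is not given here. A pseudocount of 5, no filter and a mean of at least 50 moved no count by over 1.5 times.

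Directions of named genes turned as follows; the cause was not tested beyond the scalings' own shift. With the same total, log2 fold changes were -0.21 for Rps4x, -0.022 for Rps27l, -0.23 for Rpl22l1, -0.076 for Rpl4, -0.075 for Mrps2, -0.067 for Rps29, -0.22 for Rpl3, -0.087 for Rpl35a, -0.11 for Mrps25, -0.16 for Rpl39, -0.000043 for Rpsa and -0.14 for Rps27. Without red cell and mitochondrial-genome genes they were -0.14 for Rps4x, -0.16 for Rpl22l1, -0.0083 for Rpl4, -0.0070 for Mrps2, -0.15 for Rpl3, -0.019 for Rpl35a, -0.043 for Mrps25, -0.091 for Rpl39 and -0.074 for Rps27. With the same upper quartile they were -0.051 for Rps4x, -0.074 for Rpl22l1, -0.061 for Rpl3 and -0.000605 for Rpl39, and with the same cytosolic median -0.013, -0.036 and -0.022 for Rps4x, Rpl22l1 and Rpl3. On raw counts edgeR gave 0.0093 for Rpl7 and -0.12 for Mrps25, and DESeq2 gave -0.80 for Rpl35a, 2.22 for Rpl12, -0.61 for Mrps28, -0.78 for Rps27, 0.077 for Mrpl50, -0.14 for Mrps25 and 0.18 for Rps19. Leaving out each library gave -0.020 (without MR30) to 0.049 for Rpl22l1, also below 0 at -0.00066 without MR29 and -0.0035 without MR17, and -0.032 (without MR30) to 0.22 for Rps27. Without the 3 libraries Rpl35a was -0.014 and Rps27 -0.19. No paired analysis was possible because the columns carry library codes and no replicate number.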
